A study of Homo sapiens with 14 samples.

Results

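MYC and 44 genes of ribosome biogenesis were followed across 14 RNA-seq libraries of HCT116, a human colon carcinoma cell line. The 45 genes were chosen as a list of symbols and matched to the gene identifiers of the deposited tables, each of which holds 78686 genes. All 45 were found and all 45 passed the filter on low counts in every fit, so no member was left out of any comparison. In all libraries the cells carried osTIR1(F74G), a plant F-box protein, and SAF-A (the product of HNRNPU, a nuclear matrix and RNA-binding protein) fused to mAID-Halo. The ligand 5-Ph-IAA makes osTIR1(F74G) direct such a fusion to the proteasome, so that SAF-A protein is removed.

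The libraries form 7 groups of 2. A time-course set held a DMSO vehicle, 5-Ph-IAA for 3 h and 5-Ph-IAA for 12 h. A Nutlin set held another DMSO vehicle, Nutlin alone, 5-Ph-IAA alone and the combination of both agents, and here all treated libraries were labelled 3 h. Nutlin is an inhibitor of MDM2, the ubiquitin ligase that keeps p53 low. The labels give no time for either DMSO vehicle, so no vehicle is labelled as matched to 12 h. They do not say which agent the 3 h refers to in the combined treatment, and give no dose. They also do not say whether the line is 1 clone or whether the 2 libraries of a group came from separate cultures. The p-values therefore measure only the spread between these libraries, which may be technical. With 2 libraries against 2, an exact permutation test of a single gene cannot go below p = 0.333 (two-sided), so the tests given are edgeR quasi-likelihood tests fitted across all genes of a set, with Benjamini-Hochberg adjustment and a threshold of 0.05. A gene is called raised or lowered when its adjusted p is under that threshold.

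MYC is a transcription factor that binds DNA as a partner of MAX, mostly at the E-box CACGTG, and is known for driving ribosome production in growing cells. Ribosomes are made in the nucleolus: RNA polymerase I transcribes the rRNA precursor, snoRNA-protein complexes modify it, and separate sets of factors cut and fold the parts that become the small and the large subunit. Colon carcinoma cells, HCT116 among them, are known for strong MYC activity downstream of Wnt signalling. The libraries measured RNA after removal of rRNA, so the levels below are of the factors' transcripts and not of rRNA, and fewer cells with a transcript cannot be told apart from less transcript per cell.

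Sequencing depth was 29578882 to 35140458 estimated counts in 5 of the 6 time-course libraries, 3535135 in 12 h replicate 2, and 12646773 to 17233316 in the Nutlin set. The members took 1.05% to 1.19% of the counts of a library. Of 9 epithelial markers, 7 reached 1 TPM (a level corrected for library size and transcript length), while CEACAM5 and VIL1 stayed below it in every library. Of 11 markers of blood, stromal, endothelial and liver cells, 10 stayed below 1 TPM everywhere, and COL1A1 was at 0.41 to 1.91 TPM. The summed level of all 11 was 0.49 to 2.65 TPM. HNRNPU RNA is not the target of the degron, so its level does not check that the protein was removed. It differed from vehicle by 0.02 ± 0.062 (log2, ± SE) at 3 h, was raised by 0.31 ± 0.063 at 12 h (adjusted p = 0.0074; 0.0572 without 12 h replicate 1, and a change of 0.67 with the GC correction described below), and differed by 0.01 ± 0.093 with 5-Ph-IAA in the Nutlin set. In the other comparisons with the vehicle of that set HNRNPU differed by -0.24 ± 0.093 with Nutlin and by -0.10 ± 0.093 with both agents.

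Promoter windows are shown first because the E-box is the sequence that MYC and MAX are known to bind. RefSeq windows on GRCh38.p14, from 250 bases before to 50 after a gene's start, were at hand for 35 of the 45 members. CACGTG, which reads the same on both strands, was present for 16 of the 35 members (45.7%), for 8.73% of 27270 other genes, for 27.6% of 116 other ribosome biogenesis genes and for 43.8% of 32 other genes known as MYC targets. The variant CACGCG, or CGCGTG on the other strand, was present for 37.1% of members and 13.5% of other genes. GGGCGG or CCGCCC, the core bound by SP family factors, was present for 71.4% against 48.3%, and TATAAA or TTTATA for 2.86% against 14%. A match of letters is a description of the window and shows no binding. The lines below give 30 bases around the E-box for members of different roles, 5′ to 3′ on the strand of the gene, with the E-box in capitals. ODC1 is shown with both of its E-boxes because it was the one member with 2.
ODC1, chr2:10448024-10448053, minus strand: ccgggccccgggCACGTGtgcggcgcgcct
ODC1, chr2:10447990-10448019, minus strand: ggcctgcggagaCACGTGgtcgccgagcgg
MYBBP1A, chr17:4555340-4555369, minus strand: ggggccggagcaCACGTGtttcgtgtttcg
FBL, chr19:39846356-39846385, minus strand: tgcgctcttttcCACGTGcgaaagccccgg
GAR1, chr4:109815781-109815810, plus strand: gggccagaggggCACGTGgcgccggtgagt
WDR43, chr2:28894658-28894687, plus strand: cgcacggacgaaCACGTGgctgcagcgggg
GNL3, chr3:52686026-52686055, plus strand: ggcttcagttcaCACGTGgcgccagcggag
LYAR, chr4:4290068-4290097, minus strand: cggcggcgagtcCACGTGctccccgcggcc

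In untreated cells the members spanned a wide range of levels. Mean TPM in the vehicle libraries ran from 6.34 to 2187 in the time-course set, with a median of 51.2, against a median of 9.02 over the 12850 genes with a mean of at least 1 TPM. NPM1, the nucleolar chaperone nucleophosmin, was highest in both sets, at 2187 TPM in the time-course vehicle and 2044 TPM in the Nutlin-set vehicle. NOP56, a core protein of box C/D snoRNPs, followed with 339.8 and 346.9 TPM. ODC1, the rate-limiting enzyme of polyamine synthesis and a classical MYC target, came next with 257.9 and 266.8 TPM. GAR1, a box H/ACA snoRNP protein, was lowest with 6.34 and 6.03 TPM. MYC itself ranked 13 of 45 in the time-course vehicle, at 78.5 TPM.

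The subunits of a single machine were not at a common level. Of the core subunits of RNA polymerase I, POLR1A stood at 12.3 TPM and POLR1B at 53.7 TPM in the time-course vehicle. Among the proteins of box H/ACA snoRNPs, NHP2 stood at 198.8 TPM, DKC1 (dyskerin, the pseudouridine synthase) at 47.1 TPM and GAR1 at 6.34 TPM. The large-subunit trio PES1, BOP1 and WDR12 stood at 95.8, 52.6 and 65.8 TPM. Across the 45 members the log2 levels in both vehicle groups had a Pearson r of 0.98, a description over genes of 1 cell line that share transcript length and the counting method. Each set had its own vehicle, and the labels do not say whether the sets were prepared together. No difference in level between the sets was tested.

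**Figure D1:**
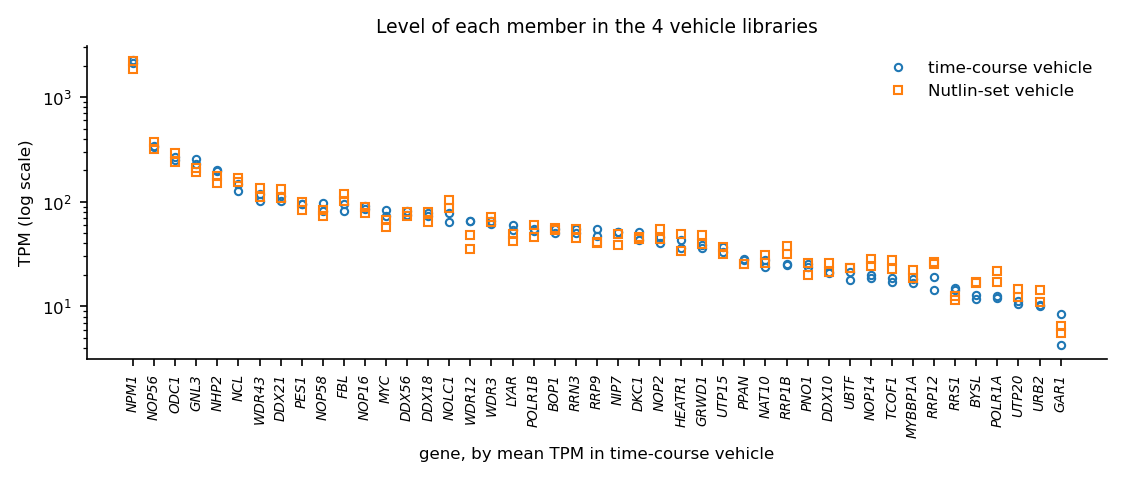
Level of each of the 45 members in the 4 vehicle libraries, in TPM on a log scale, genes ordered by their mean in the time-course vehicle; circles are time-course libraries and squares Nutlin-set libraries. NPM1 stands highest at about 2187 TPM and GAR1 lowest at 6.34 TPM.

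The first comparison asked what 3 h of 5-Ph-IAA did to the members. MYC was the member with the largest rise in value and no member was called. MYC stood at 218.0 and 231.9 CPM (counts scaled to library size with TMM factors, used to compare 1 gene across the libraries of a set) in the vehicle libraries and at 287.9 and 286.7 CPM at 3 h. Both treated libraries lay above both vehicle libraries. The estimated count of MYC was a whole number in 1 of the 14 libraries, so reads were shared out between genes and its values are uncertain to that extent. The log2 fold change was 0.35 ± 0.067, a fold of 1.28, with an edgeR adjusted p of 0.115. That missed the threshold, whereas DESeq2 gave an adjusted p of 0.00017 for a log2 change of 0.36. By edgeR the call was also made with either vehicle library left out, at 0.33 without replicate 1 and 0.40 without replicate 2. A replicate block and a fit without a filter on low counts gave the call too. It was not made with either 3 h library left out, with RLE size factors or with only the 2 compared groups. Nor was it made with libraries thinned to the shallowest or with the GC correction described below.

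Over all genes, edgeR called 0.063% raised and 0.00525% lowered at 3 h. None of the 45 members was called. At an unadjusted p under 0.05, 6 members were higher and none lower, beside 3.42% and 3.03% of all genes, and DESeq2 called MYC alone. The median log2 change of the members was 0.07, with 33 above 0 and 12 below, beside a median of -0.01 and 47.4% above 0 over all genes tested. ODC1 stood at 745.2 and 740.9 CPM in vehicle and 842.3 and 791.5 CPM at 3 h, a change of 0.14 ± 0.064 (adjusted p = 0.766). Among RNA polymerase I factors the values ran from -0.09 to 0.11, POLR1B at 0.07 and RRN3 at -0.09. In the box C/D group NOP56 was at 0.15 and the methyltransferase fibrillarin, FBL, at 0.08, and in the box H/ACA group NHP2 was at 0.12 and DKC1 at 0.02.

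Small-subunit factors ran from -0.09 to 0.35 at 3 h, with WDR43 at 0.01 and the helicase DDX21 at 0.01. Large-subunit factors ran from -0.12 to 0.26, with GNL3 (nucleostemin) at -0.04 and PES1 at 0.12. NPM1 and NCL (nucleolin) were at 0.02 and 0.03. A further 3 members are named after their values were seen, as the highest after MYC: RRP12, a factor for nuclear export of pre-ribosomes, at 0.35 ± 0.108, BYSL at 0.32 ± 0.118 and GRWD1 at 0.26 ± 0.077. RRP12 was at 112.3 and 86.5 CPM in vehicle against 127.4 and 125.8 CPM at 3 h, and passed the edgeR threshold only in the fits without vehicle replicate 1 (0.57, adjusted p = 0.00216) and without a filter on low counts (0.37, adjusted p = 0.0142). Its vehicle libraries were farther apart than the treated pair.

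After 12 h of 5-Ph-IAA members were called in both directions. NCL, the RNA polymerase I genes POLR1A and TCOF1, the small-subunit factors DDX10 and RRP12, and MYC were raised, while RRN3, DDX18 and NPM1 were lowered. NCL showed the largest change, a rise of 1.43-fold. Of the 45 members 6 were raised and 3 lowered, beside 3.39% of all genes raised and 7.97% lowered. DESeq2 called 11 raised and 6 lowered, beside 8.01% and 13.8% of the genes it gave an adjusted p. By either method the share of members lowered was not above that of all genes. With a correction for GC content, of these 9 members NCL and DDX10 alone stayed called, and DDX18 was then at -0.08, NPM1 at -0.03, MYC at 0.10 and RRP12 at 0.23. The median over members was 0.06, with 30 above 0 and 15 below, and the median over all genes tested was -0.00, to 2 decimals.

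NCL (chr2:231453531-231483641, minus strand, GRCh38 as annotated in GENCODE 29) encodes nucleolin, an abundant nucleolar RNA-binding protein. It stood at 472.7 and 518.1 CPM in vehicle, 506.1 and 505.5 CPM at 3 h, and 717.8 and 703.0 CPM at 12 h. Both 12 h libraries lay above all 4 others, while vehicle and 3 h overlapped. The change from vehicle was 0.52 ± 0.063 (adjusted p = 0.00056) and from 3 h to 12 h 0.49 ± 0.063 (adjusted p = 0.00137). NCL was called in both comparisons in every setting run, leaving out any 1 library included.

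Within RNA polymerase I transcription the factors moved apart. POLR1A (chr2:86020216-86106155, minus strand), the largest subunit of the polymerase, stood at 113.0 and 94.1 CPM in vehicle, 103.6 and 113.4 CPM at 3 h, and 142.7 and 142.5 CPM at 12 h. Its change at 12 h was 0.46 ± 0.099 (adjusted p = 0.0107). TCOF1 (chr5:150357629-150400308, plus strand), whose product treacle recruits factors to rRNA genes, went from 121.8 and 108.3 CPM to 159.1 and 155.6 CPM, a change of 0.45 ± 0.087 (adjusted p = 0.0058). For both genes the 12 h libraries lay above all vehicle and 3 h libraries, and both calls were lost without 12 h replicate 1 (adjusted p = 0.0734 for POLR1A and 0.0524 for TCOF1).

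RRN3 (chr16:15060022-15094317, minus strand), known as TIF-IA, the factor that makes RNA polymerase I competent to initiate, moved the other way. It stood at 238.2 and 250.3 CPM in vehicle, 238.3 and 221.7 CPM at 3 h, and 191.1 and 168.5 CPM at 12 h. The change was -0.43 ± 0.081 (adjusted p = 0.0054), or 0.743 times the vehicle level. With the GC correction described below it was -0.23 (adjusted p = 0.107), and the call was lost. RRN3 has near-identical pseudogene copies, and its estimated count was not a whole number in any of the 14 libraries, so reads were shared out between genes and its value is uncertain to that extent. The same held for 6 other members (NHP2, NOP16, DDX56, NIP7, PPAN and HEATR1), and NOP58 and PNO1, like MYC, had a whole count in 1 library each. POLR1B (chr2:112541915-112577150, plus strand), the other large core subunit, stood at 205.2 and 205.6 CPM in vehicle, 214.8 and 217.1 CPM at 3 h and 183.4 and 171.8 CPM at 12 h. It was lowered from 3 h to 12 h by -0.28 ± 0.072 (adjusted p = 0.0353), and the value against vehicle was -0.20 ± 0.072 (adjusted p = 0.0925). UBTF and MYBBP1A were at 0.25 each against vehicle, with adjusted p of 0.106 and 0.136.

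**Figure D2:**
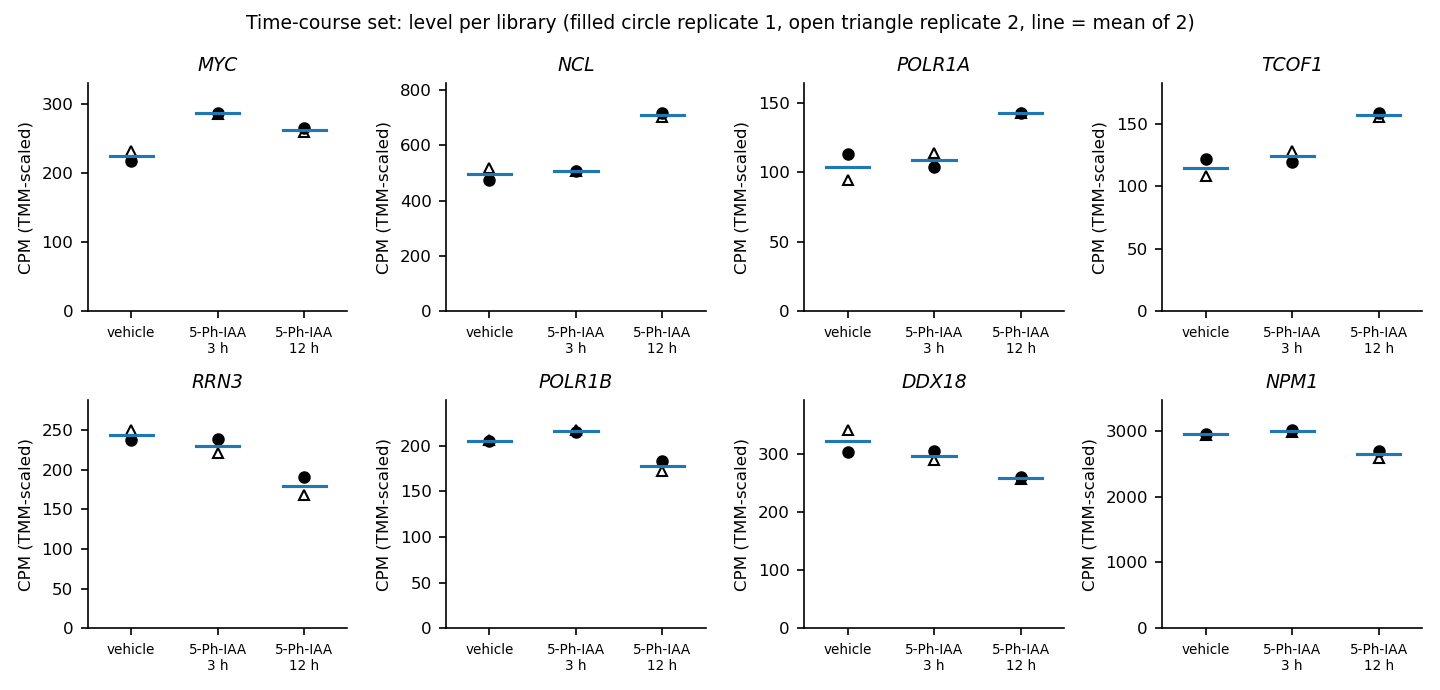
CPM with TMM scaling in each time-course library for 8 members: vehicle, 3 h and 12 h of 5-Ph-IAA, with replicate 1 as a filled circle, replicate 2 as an open triangle and a line at the mean of the 2. NCL, POLR1A and TCOF1 are highest in both 12 h libraries, RRN3, POLR1B, DDX18 and NPM1 lowest there, and MYC is above vehicle at both times.

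MYC at 12 h stood at 266.4 and 260.3 CPM, above both vehicle libraries and below both 3 h libraries. The change from vehicle was 0.23 ± 0.068 with an adjusted p of 0.0499, and that from 3 h was -0.12 ± 0.068 (adjusted p = 0.318). The 12 h call lay at the threshold and was lost in 7 of 11 other settings, among them without either 12 h library and without vehicle replicate 1. ODC1 stood at 675.0 and 604.1 CPM at 12 h, below all vehicle and 3 h libraries. It was lowered from 3 h to 12 h by -0.35 ± 0.065 (adjusted p = 0.0073), and was at -0.21 ± 0.065 against vehicle (adjusted p = 0.0551).

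Among small-subunit factors DDX10 (chr11:108665025-108940930, plus strand), an RNA helicase, stood at 95.1 and 91.6 CPM in vehicle and 117.6 and 114.8 CPM at 12 h, a rise of 0.32 ± 0.084 (adjusted p = 0.029). RRP12 was at 132.3 and 124.7 CPM at 12 h, a rise of 0.38 ± 0.112 (adjusted p = 0.0497), at the threshold. Each call was lost in 5 of 11 other settings, among them without 12 h replicate 1 (adjusted p = 0.167 for DDX10 and 0.268 for RRP12), without 12 h replicate 2 (0.0566 and 0.0628) and without vehicle replicate 2 (0.0843 and 0.241). Both genes lay above both vehicle libraries at 12 h, and for RRP12 the 12 h and 3 h libraries overlapped. Those 2 were the calls among 13 small-subunit factors, which ran from -0.20 to 0.38 with a median of 0.06.

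Of 14 large-subunit factors 1 was called at 12 h. DDX18 (chr2:117814650-117832379, plus strand), an RNA helicase of early pre-60S particles, stood at 303.5 and 340.5 CPM in vehicle, 304.3 and 288.1 CPM at 3 h and 259.0 and 256.7 CPM at 12 h. It was lowered by -0.32 ± 0.075 (adjusted p = 0.0164), a call lost without 12 h replicate 1 (adjusted p = 0.0927) and without vehicle replicate 2 (adjusted p = 0.0866). BOP1, which works with PES1 and WDR12 in maturation of the large-subunit rRNA, was at 185.2 and 175.6 CPM at 3 h and 146.3 and 150.4 CPM at 12 h. BOP1 was lowered between those times by -0.29 ± 0.075 (adjusted p = 0.0363), and was at -0.20 ± 0.075 against vehicle (adjusted p = 0.115). Its partners were not called: at 12 h against vehicle PES1 was at 0.15 and WDR12 at -0.17.

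The snoRNP proteins gave no call at 12 h. In the box C/D group NOP56 was at 0.16 ± 0.070 and FBL at 0.16 ± 0.116. In the box H/ACA group NHP2 was at 0.19 ± 0.087 and DKC1 at 0.12 ± 0.088. NPM1 (chr5:171387116-171411137, plus strand) stood at 2954 and 2939 CPM in vehicle, 3011 and 2976 CPM at 3 h, and 2695 and 2585 CPM at 12 h. It was lowered by -0.16 ± 0.042 (adjusted p = 0.0301), the smallest change among the 9 calls, in the member with the most counts. That call was lost in 9 of 11 other settings, any 1 library left out included. NCL and NPM1, which both encode abundant nucleolar proteins, thus differed in the sign of their change.

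Directly from 3 h to 12 h, 3 members were raised (NCL, POLR1A and TCOF1) and 5 lowered (ODC1, NPM1, RRN3, POLR1B and BOP1), beside 2.35% of all genes raised and 5.79% lowered. POLR1A was at 0.39 ± 0.099 (adjusted p = 0.0298) and TCOF1 at 0.34 ± 0.087 (adjusted p = 0.0299). RRN3 was at -0.34 ± 0.081 (adjusted p = 0.0229) and NPM1 at -0.18 ± 0.042 (adjusted p = 0.0208). This comparison shares its 12 h libraries with the one against vehicle, so the 2 are not independent. With any 1 library left out, NCL and ODC1 were still called, RRN3 and NPM1 depended on the library, and POLR1A, TCOF1, POLR1B and BOP1 were lost. Thinned to the shallowest library, the calls were NCL, TCOF1, DDX10, NOLC1 and NOP2 raised and ODC1 lowered, with no share of all genes beside them. DESeq2 called 5 members raised and 6 lowered, beside 5.63% and 11.5% of the genes it gave an adjusted p. HNRNPU was raised by 0.29 ± 0.063 (adjusted p = 0.0151), a call lost without 3 h replicate 1 (adjusted p = 0.16) and without 12 h replicate 1 (adjusted p = 0.11), and was at 0.55 with the GC correction. The members' median was -0.03 and that of all genes tested -0.01. In the groups without a call, NOP56 was at 0.01, FBL at 0.08, NHP2 at 0.07, DKC1 at 0.09, WDR43 at -0.12 and DDX21 at -0.21.

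Some library measures and transcript GC content moved with the 12 h values, and GC content also with those at 3 h. Mitochondrial genes took 0.251% and 0.291% of counts in the 12 h libraries and 0.163% to 0.215% in the other 4 of the set, and the summed epithelial markers were at 5540 to 5570 TPM at 12 h and 4665 to 4862 TPM in vehicle and at 3 h; their part in the members' changes was not tested. The 6 raised members had a median GC of 52.8% and the 3 lowered members one of 41.5%, beside 50.6% over all members. Across all genes tested those raised had a median of 54% and those lowered one of 39.4%. Over the 45 members GC and the 12 h log2 change had a Pearson r of 0.48 and a rank correlation (Spearman rho) of 0.48. Over 17075 genes tested these were 0.13 and 0.34. At 3 h in the time-course set the Pearson r was 0.515 over members and 0.04 over all genes tested. With 5-Ph-IAA in the Nutlin set it was -0.446 over members and -0.04 over all genes tested. The part of GC in the 3 h values was not tested beyond the GC correction. All these are descriptions across genes of the same libraries, which are not replicates. A GC correction chosen after seeing the data left 4 members called: NCL at 0.51 and DDX10 at 0.57 raised, ODC1 at -0.30 and BOP1 at -0.33 lowered, beside 2.05% of all genes raised and 2.12% lowered. POLR1A was then at 0.36 and TCOF1 at 0.31, each with an adjusted p of 0.059, and the adjusted p of DDX18, NPM1, RRP12 and MYC ran from 0.259 to 0.795. Over all genes that correction changed the calls from 645 raised and 1518 lowered to 391 and 403, and between 3 h and 12 h from 448 and 1103 to 330 and 424. Without 12 h replicate 1, so that the shallow library stood alone for 12 h and was assumed to vary like the other groups, NCL was raised and RRN3 and ODC1 lowered, beside 1.27% and 3.4% of all genes. Without the shallow library, 12 h replicate 2, the calls were NCL, NOP2, POLR1A and TCOF1 raised and RRN3 and DDX18 lowered, beside 2.56% and 6.97% of all genes.

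**Figure D3:**
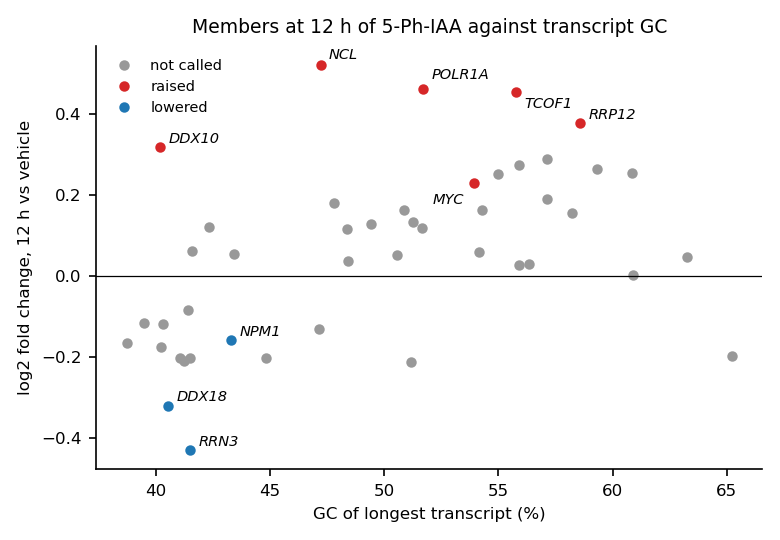
The log2 fold change at 12 h of 5-Ph-IAA against vehicle for each of the 45 members, plotted against the GC percent of its longest transcript; red points were raised, blue lowered and grey not called. The 3 lowered members lie between 40.5% and 43.3% GC, and the 6 raised between 40.2% and 58.6%.

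Other genes of the pathway were also called in both directions at 12 h, when 3.39% of all genes were raised and 7.97% lowered. Of 131 further ribosome biogenesis genes 12 were raised and 19 lowered, with a median of 0.03. PDCD11, a large scaffold of the small-subunit processome, was raised by 0.54 ± 0.060 (adjusted p = 0.00037). TAF1D, a subunit of the RNA polymerase I selectivity factor, was at -0.59 ± 0.076 (adjusted p = 0.00078), RSL24D1 at -0.58 ± 0.077 and NOL11 at -0.52 ± 0.071, all lowered. Of 15 tested genes of the MYC network 2 were raised, TRRAP (a scaffold of histone acetyltransferase complexes that MYC binds) by 0.60 ± 0.082 and MGA by 0.31 ± 0.080, and none was lowered. Of 34 other known MYC targets 3 were raised and 5 lowered, among them EIF4G1 at 0.45 ± 0.064, SLC7A5 at 0.56 ± 0.095, AMD1 at -0.55 ± 0.084 and BZW2 at -0.44 ± 0.089. The calls in these lists were not followed under the GC correction or with a library left out. At 3 h none of these lists held a call.

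5-Ph-IAA in the Nutlin set was the second measurement of 3 h of 5-Ph-IAA, against another vehicle. No gene was called in either direction (0% raised and 0% lowered by edgeR, with 1 raised by DESeq2). At an unadjusted p under 0.05, 245 genes differed (0.643% higher and 0.777% lower) and no member did. The members' values ran from -0.21 to 0.08, with a median of -0.02 beside -0.00 over all genes. MYC stood at 183.4 and 180.8 CPM in vehicle and at 167.8 and 170.3 CPM with 5-Ph-IAA, a change of -0.11 ± 0.103 (adjusted p = 1). Both treated libraries lay below both vehicle libraries, the opposite order to that in the time-course set. ODC1 was at 0.03, POLR1B at -0.04, RRN3 at 0.02, NOP56 at -0.02, FBL at -0.09, NHP2 at 0.02 and DKC1 at 0.01. WDR43 was at 0.00, DDX21 at -0.05, GNL3 at 0.00, PES1 at -0.06, NPM1 at 0.01 and NCL at -0.13.

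The difference between the 3 h effects of the 2 sets was tested in 1 fit of 8 libraries. For MYC it was -0.47 ± 0.088 (Nutlin set minus time-course set), with an edgeR adjusted p of 0.123 and a DESeq2 adjusted p of 0.00049. It passed the edgeR threshold without time-course vehicle replicate 1 (-0.43, adjusted p = 0.0494) and without a filter on low counts (-0.48, adjusted p = 0.0046). No member was called, beside 0% of all genes higher and 0.0636% lower in the Nutlin set. Of the 45 differences 38 were below 0, with a median of -0.08, beside a median of 0.00 over all genes tested. HNRNPU differed by -0.02 ± 0.081. The members' differences went with GC content, with a Pearson r of -0.65 and a Spearman rho of -0.70 over 45 genes. Over 16963 genes these were -0.06 and -0.18. The part of GC in the differences was not tested beyond the GC correction, under which the MYC difference was -0.43 (edgeR adjusted p = 0.178).
The differences of the other leading members were ODC1 at -0.12, POLR1B at -0.12, RRN3 at 0.09, NOP56 and FBL at -0.19 each, NHP2 at -0.12, DKC1 at -0.03, WDR43 at -0.02, DDX21 at -0.07, GNL3 at 0.02, PES1 at -0.19, NPM1 at -0.02 and NCL at -0.18.

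**Figure D4:**
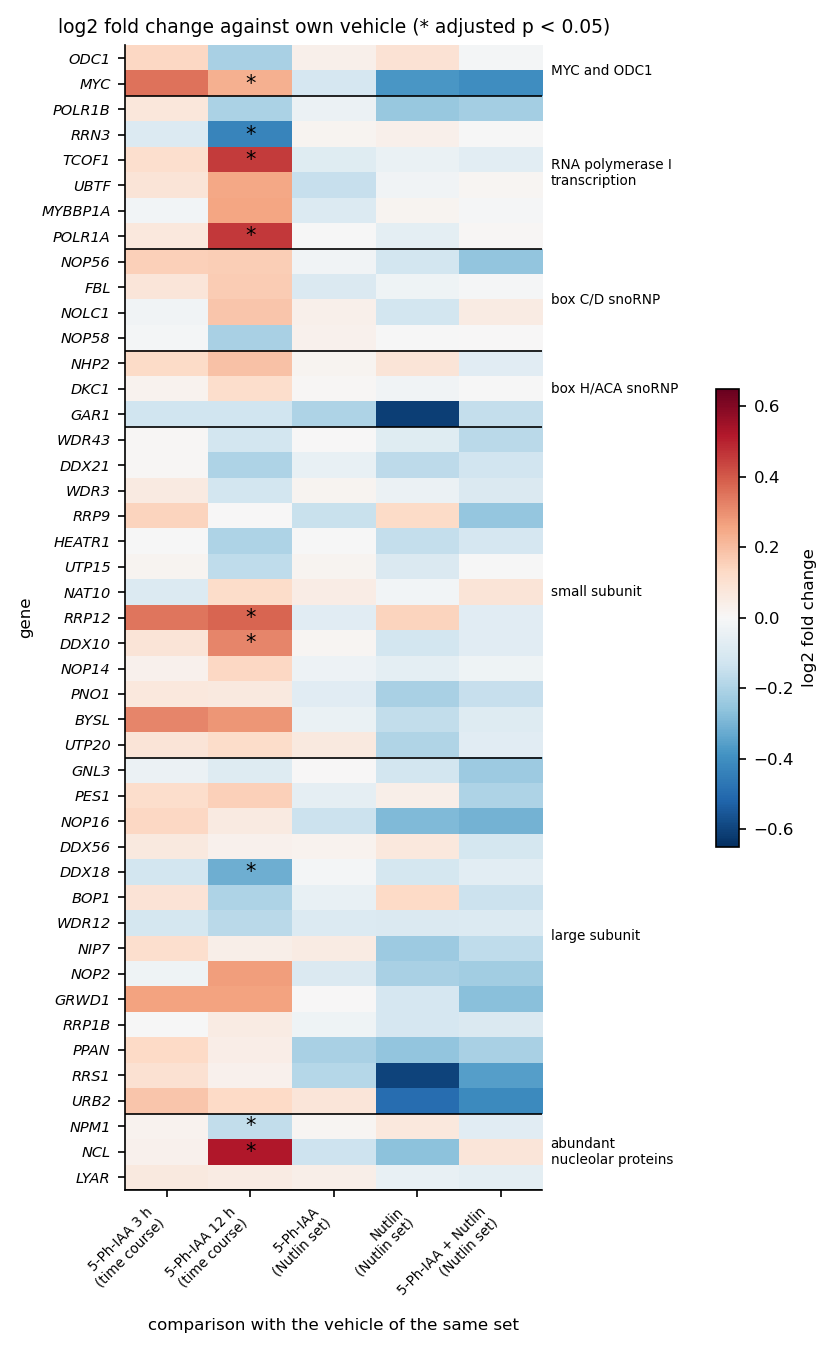
The log2 fold change of each member (rows, by role and then by mean TPM) against the vehicle of its own set in 5 comparisons (columns); red is higher and blue lower than vehicle, and an asterisk marks an edgeR adjusted p under 0.05. All 9 asterisks fall in the 12 h column, and in the column of both agents all 14 large-subunit factors are below 0.

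Nutlin left most members slightly below vehicle without a call against vehicle alone. CDKN1A, the p53 target that encodes p21, rose 2.66-fold with Nutlin (adjusted p = 3.16e-05). No member was called, beside 0.394% of all genes raised and 0.0696% lowered, and DESeq2 called URB2 lowered. At an unadjusted p under 0.05, 7 members were lower and none higher, beside 5.53% of all genes lower and 5.23% higher. Of the 45 members 35 were below 0, with a median of -0.10 against -0.00 over all genes. MYC stood at 154.5 and 126.3 CPM with Nutlin against 183.4 and 180.8 CPM in vehicle, -0.38 ± 0.104 (adjusted p = 0.227).

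URB2 (chr1:229626234-229660199, plus strand), a factor of 60S subunit assembly, was the one member called for Nutlin when both arms of the set were averaged. It stood at 90.8 and 89.8 CPM in vehicle, 64.7 and 63.3 CPM with Nutlin, 96.6 and 94.3 CPM with 5-Ph-IAA and 64.0 and 71.4 CPM with both agents. The 4 libraries with Nutlin lay below the 4 without it. Against vehicle the change with Nutlin was -0.50 ± 0.092 (adjusted p = 0.0567) and with both agents -0.41 ± 0.091 (adjusted p = 0.14). Averaged over both arms it was -0.50 ± 0.065 (adjusted p = 0.0042), or 0.709 times the level without Nutlin, and without combination replicate 1 the call was lost (-0.46, adjusted p = 0.052).

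In that average 0 members were raised and 1 lowered, beside 0.956% of all genes raised and 0.487% lowered. At an unadjusted p under 0.05, 11 members were lower and none higher, beside 6.49% of all genes lower and 6.9% higher. MYC was at -0.34 ± 0.073, with an adjusted p of 0.0617 by edgeR and 0.0057 by DESeq2, and all 4 libraries with Nutlin (126.3 to 154.5 CPM) lay below all 4 without it (167.8 to 183.4 CPM). Among snoRNP proteins none passed the threshold in the average: NOP56 was at -0.18 and FBL at 0.03, NHP2 at -0.00 and DKC1 at -0.01. POLR1B was at -0.21, RRN3 at 0.01, WDR43 at -0.13, DDX21 at -0.12, GNL3 at -0.18 and PES1 at -0.05. ODC1 was at 0.02, NPM1 at -0.01, NCL at -0.03 and HNRNPU at -0.17.

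RRS1, another assembly factor of the large subunit, is named after its values were seen. It stood at 28.4 and 26.1 CPM in vehicle, 20.8 and 15.3 CPM with Nutlin, 25.8 and 22.1 CPM with 5-Ph-IAA and 21.1 and 21.5 CPM with both agents. Every library with Nutlin lay below every library without it, and the averaged change was -0.39 ± 0.111 (adjusted p = 0.158). By role, the large-subunit factors had the lowest averaged median apart from the pair MYC and ODC1, at -0.15 with 13 of 14 below 0. RNA polymerase I factors were at -0.01 and small-subunit factors at -0.10.

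The leading members are given for the single comparisons too. Against vehicle, Nutlin gave ODC1 at 0.09, POLR1B at -0.25, RRN3 at 0.03, NOP56 at -0.12, FBL at -0.03, NHP2 at 0.09, DKC1 at -0.02, WDR43 at -0.08, DDX21 at -0.17, GNL3 at -0.12, PES1 at 0.04, NPM1 at 0.07 and NCL at -0.27. With 5-Ph-IAA and Nutlin together no member was called, beside 0.284% of all genes raised and 0.0406% lowered. Both agents left 39 of 45 members below 0 with a median of -0.09, while 49.6% of all genes tested were above 0. The median was -0.08 over 131 other ribosome biogenesis genes, -0.10 over 34 other MYC targets and -0.02 over 15 MYC network genes. At an unadjusted p under 0.05, 9 members were lower and none higher, beside 3.27% of all genes lower and 3.99% higher. All 14 large-subunit factors were below 0, from -0.41 to -0.07, with a median of -0.20, while over all genes tested the median was -0.00. MYC stood at 137.1 and 138.5 CPM, -0.40 ± 0.104 against vehicle (adjusted p = 0.253). ODC1 was at -0.01, POLR1B at -0.22, RRN3 at -0.00, NOP56 at -0.25, FBL at -0.01, NHP2 at -0.08, DKC1 at -0.00, WDR43 at -0.17, DDX21 at -0.13, GNL3 at -0.24, PES1 at -0.20, NPM1 at -0.07 and NCL at 0.08. These comparisons share the vehicle libraries, so they are not independent of each other.

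**Figure D5:**
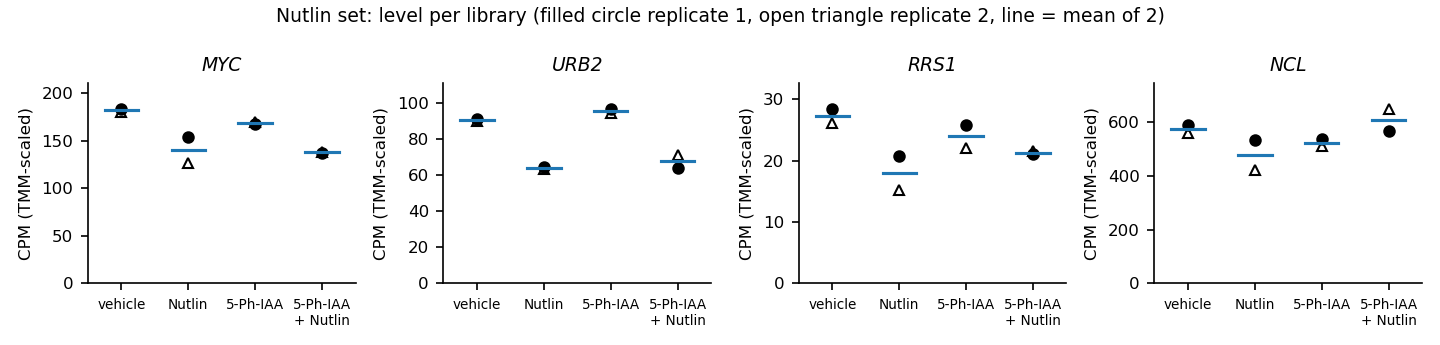
CPM with TMM scaling in each library of the Nutlin set for MYC, URB2, RRS1 and NCL, with replicate 1 as a filled circle, replicate 2 as an open triangle and a line at the mean of the 2. URB2 lies at 63.3 to 71.4 CPM in the 4 libraries with Nutlin and at 89.8 to 96.6 CPM in the 4 without.

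The 2 Nutlin libraries differed from each other more than any other pair of replicates. Their members differed by a median of 0.237 on the log2 scale, against 0.0648 to 0.0941 in the other 6 groups, and over all genes by 0.294, against 0.132 to 0.275. Mitochondrial genes took 0.189% of counts in Nutlin replicate 2 and 0.289% to 0.344% in the other 7 libraries of the set. NPM1 was at 2157 CPM in replicate 1 and 2853 CPM in replicate 2, POLR1A at 196.9 and 131.8 CPM, and TCOF1 at 179.8 and 117.8 CPM. Without Nutlin replicate 1, Nutlin against vehicle called 9 members, NPM1 and ODC1 raised and MYC, NCL, NOP2, POLR1A, RRS1, TCOF1 and URB2 lowered, beside 4.57% of all genes raised and 7.06% lowered. Without Nutlin replicate 2 it called 7, all lowered (DDX10, DDX18, DDX21, NIP7, NOP16, POLR1B and URB2), beside 2.25% of all genes raised and 4.15% lowered. Only URB2 was in both lists. In these fits the lone Nutlin library was assumed to vary like the other groups.

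The interaction term asked if the effect of Nutlin differed with and without 5-Ph-IAA. No member and no gene was called (0% in either direction by edgeR, with 1 lowered by DESeq2; 623 genes had an unadjusted p under 0.05, 2.08% higher and 1.53% lower). The members' median was 0.05, with 29 above 0, beside 0.01 over all genes. MYC was at 0.08 ± 0.147 and URB2 at 0.00 ± 0.129. NCL was at 0.48 ± 0.170 (adjusted p = 0.989) and was the one member at an unadjusted p under 0.05. Without Nutlin replicate 1 the interaction called 4 members higher and 2 lower, NCL among them (0.65, adjusted p = 0.00237), beside 4% and 1.65% of all genes. Without replicate 2 it called no member, beside 0.0163% and 0.0109% of all genes. The leading members of the other roles were ODC1 at -0.14, POLR1B at 0.06, RRN3 at -0.05, NOP56 at -0.11, FBL at 0.11, NHP2 at -0.18, DKC1 at 0.01, WDR43 at -0.10, DDX21 at 0.10, GNL3 at -0.12, PES1 at -0.18 and NPM1 at -0.15, and HNRNPU was at 0.13.

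Of the wider pathway, averaged Nutlin lowered 3 of 131 other ribosome biogenesis genes and raised none, beside 0.487% of all genes lowered and 0.956% raised. The 3 were POLR1G at -0.57 ± 0.090 and POLR1C at -0.39 ± 0.077, both subunits of RNA polymerase I, and IMP3, a small-subunit processome protein, at -0.43 ± 0.073. None of 15 MYC network genes was called, and of 34 other MYC targets CDC25A at -0.61 ± 0.071 and AMD1 at -0.52 ± 0.093 were lowered. The calls in these lists were not followed with a library left out. Of the comparisons of Nutlin or of both agents with vehicle, CDC25A with Nutlin (-0.57 ± 0.101, adjusted p = 0.0481) was the one call in these 3 lists.

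The members were also set side by side by the E-box in their promoter window. At 12 h none of the 16 with CACGTG was called, with a median of 0.09, against 3 raised and 2 lowered among the 19 with a window and no CACGTG, whose median was 0.05, and beside the 3.39% and 7.97% of all genes. From 3 h to 12 h, 1 of the 16 was lowered (ODC1) against 2 raised and 3 lowered among the 19, beside 2.35% raised and 5.79% lowered of all genes. At 3 h the medians were 0.04 and 0.07, and with Nutlin averaged over both arms -0.09 and -0.06. MYC, BOP1, TCOF1, RRP12, DDX18 and URB2, all called in a comparison, were among the 10 members without a window. The difference between members with and without the E-box was not tested.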

How the data were processed

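RNA-seq libraries of HCT116 total RNA were made with Illumina's TruSeq Stranded Total RNA Gold kit, which removes rRNA and keeps strand, per the labels' protocols. Per the file headers, the authors deposited RSEM estimated counts (expected counts) and TPM per gene and library. The submitters' processing notes name STAR 2.7.10b, RSEM, DESeq2 1.48.1 and hg38/GRCh38, without saying what each was used for. The annotation release is not given in the sources used here.

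Expected counts were rounded, filtered with filterByExpr (minimum count 10, minimum total 15), scaled by TMM and tested with edgeR 4.0.16 (R 4.3.3): 19049 genes in the time-course set (3 residual degrees of freedom), 17251 in the Nutlin set (4) and 18873 in the joint 3 h fit (4). Sets were fitted apart, with 1 coefficient per group. The code was tested on simulated data. Deposited TPM was used for levels between genes and for the cell type markers, whose sums were compared between groups without TMM scaling. Alternatives were DESeq2 1.42.0, RLE size factors, no filter, a replicate block, leaving out each library, only the compared groups, thinning, and a GC correction (lowess span 0.3) chosen after seeing the data.

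The members, the role groups and the pathway lists were chosen with earlier results of these data known. Values are given for MYC and HNRNPU in every comparison, for called members (up to 5 per role, by p), for the 2 members with the highest mean TPM of a role without a call, and for up to 4 called genes of each other list. Coordinates are from GENCODE 29 (GRCh38), matched by gene identifier without version.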

Additional observations from a re-analysis of the deposited data

Results flagged for a closer look

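For 4 members the order of the libraries was opposite in the 2 contexts measured: every treated library lay above both controls in 1 context and below both in the other. The share of all genes with such an order was not counted, so the 4 have no background beside them. Their number is therefore not a result about the members. With 2 libraries against 2 this order alone is not a call. For the 3 h effect of 5-Ph-IAA this held for MYC (Nutlin set minus time-course set -0.47, edgeR adjusted p = 0.123), RRP12 (-0.44, adjusted p = 0.705) and NOP16 (-0.29, adjusted p = 0.714), each higher than vehicle in the time-course set and lower in the Nutlin set. For the effect of Nutlin it held for NCL, lower with Nutlin alone (534.1 and 423.0 CPM against 591.3 and 560.4 CPM in vehicle) and higher with Nutlin on top of 5-Ph-IAA (567.4 and 649.7 CPM against 537.0 and 513.5 CPM). The NCL interaction was 0.48 with an adjusted p of 0.989. With all libraries and the filter on low counts, none of the 4 differences passed the edgeR threshold. The RRP12 difference passed it without time-course vehicle replicate 1 (-0.64, adjusted p = 0.0146) and without the filter (-0.44, adjusted p = 0.031), the MYC difference in the same 2 settings (adjusted p = 0.0494 and 0.0046), and the NCL interaction without Nutlin replicate 1 (0.65, adjusted p = 0.00237).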

How the results depend on the processing

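DESeq2 called 54 genes and 1 member at 3 h. At 12 h it called 17 members, beside 8.01% of the genes it gave an adjusted p raised and 13.8% lowered. With Nutlin it called 158 genes and 1 member, and with 5-Ph-IAA in the Nutlin set 1 gene. With both agents it called 104 genes, and for the interaction 1 gene. For averaged Nutlin it called 2 members, beside 194 genes raised and 133 lowered. For the difference between the sets it called 47 genes and 1 member. The number of genes tested changed with the setting, so counts of members are not comparable between settings as they stand. At 12 h DESeq2 gave 10555 genes an adjusted p, and edgeR tested 19049. Without a filter on low counts, edgeR called 193 genes and 2 members at 3 h, 2448 genes from 3 h to 12 h, 405 genes and 2 members with Nutlin, 53 with 5-Ph-IAA in the Nutlin set, 268 with both agents, 57 for the interaction, 635 genes and 3 members for averaged Nutlin, and 177 genes and 2 members for the difference between the sets. With only the compared groups fitted, it called 1391 genes and 5 members at 12 h, 27 genes with Nutlin, 9 with 5-Ph-IAA in the Nutlin set, and 392 genes and 3 members with both agents. The GC correction gave 794 genes and 4 members at 12 h, and 754 genes and 4 members from 3 h to 12 h. It gave 127 genes and 1 member with Nutlin, 94 genes with both agents and 7 genes for the difference between the sets. For averaged Nutlin it called MYC and URB2 lowered, with no share of all genes beside them. Thinning to the shallowest library and RLE size factors kept each total of calls, both directions together, within 1.5 times. By direction, thinning changed the members called from 3 h to 12 h from 3 raised and 5 lowered to 5 raised and 1 lowered. The shares of all genes by direction in the thinned fit are not given here. The cause of these shifts was not tested.

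Leaving out 1 library gave 23 to 283 genes and 0 to 2 members at 3 h, 961 to 2446 genes and 3 to 9 members at 12 h, 612 to 1545 genes and 2 to 4 members from 3 h to 12 h, and 25 to 2131 genes and 0 to 9 members with Nutlin. It gave 21 to 30 genes with both agents, 0 to 1035 genes and 0 to 6 members for the interaction, 84 to 1977 genes and 0 to 16 members for averaged Nutlin, and 5 to 145 genes and 0 to 2 members for the difference between the sets. The sign changed for HNRNPU at 3 h (-0.0035 to 0.078 with 1 library left out, -0.029 thinned), for HNRNPU with 5-Ph-IAA in the Nutlin set (-0.0049 with the GC correction), for the HNRNPU difference between the sets (-0.067 to 0.0198) and for the MYC interaction (-0.056 to 0.23), none of them called.

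Replicate numbers are shared between groups, and the labels do not say whether same-numbered libraries are paired. Across all genes tested, same-numbered libraries did not deviate together (correlations of -0.0888 to 0.047). Genes with few counts weigh as much as others in that measure, so it cannot exclude a weak pairing. The main fits used no block. With a replicate block, 45 genes and 1 member (MYC) were called at 3 h and 6 genes for the difference between the sets, and the other totals stayed within 1.5 times. At 12 h the block kept every member call of the main fit and added GRWD1 raised and DDX21 and ODC1 lowered. The shares of all genes called in that setting are not given here. Depth limits 12 h replicate 2 (3535135 counts), and 2 libraries a group limit every test.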
